A study of Triticum aestivum with 18 samples.

Results

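B3-domain transcription factors include both activators and repressors of the embryo program. From the annotation, 1 wheat gene of the ABI3 group and 1 of the VAL group were followed through microspore embryogenesis. The putative activator was TraesCS3A02G249100, a gene of the ABI3 group on chromosome 3A that the study matched to rice LFL1, referred to here as the LFL1-type gene. The putative repressor was TraesCS2B02G122500, a gene of the VAL group on chromosome 2B whose closest annotated protein was the rice B3-domain protein Os07g0679700, referred to here as the VAL-type gene. Both were picked by name from a wheat gene annotation with 107892 high-confidence genes, and the values of their transcripts were summed per gene. Both were among the 62692 genes that were expressed at 1 CPM (a count scaled to the size of its library) or more in some library and were tested. The choice used readouts of these same libraries. The study described ABI3 and VAL factors in further contrasts as well, Nanda against Sadash on Day 21 among them. Both genes were listed by the study as changed between Day 0 and Day 7 in Nanda, and the LFL1-type gene was known to differ between the genotypes over that interval, so those values are given as a description without a test.

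In Arabidopsis, LEC2, FUS3 and ABI3 are B3 proteins that bind RY motifs and, with the NF-YB protein LEC1, switch on embryo identity and the genes of seed reserves and desiccation tolerance. The VAL proteins of Arabidopsis carry the same kind of DNA-binding domain and silence that set of activators after germination, together with histone deacetylases and Polycomb proteins. Rice LFL1 takes its name from LEC2 and FUSCA3, and its overexpression delays flowering in rice. What the wheat proteins do was not measured in these data.

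RNA-seq was done on microspore cultures of hexaploid bread wheat (Triticum aestivum) of the spring genotypes Nanda, which is highly embryogenic, and Sadash, which responds poorly. The 6 groups were Day 0 microspores, Day 7 proembryos and the embryo-like structures (ELSs) of Day 21 from each genotype, with 3 libraries per group and 18 in all. Spikes of both genotypes were given the same cold pre-treatment before microspores were isolated, so no group without that stress is compared here, and RNA came from pooled microspores. The labels call the libraries of a group biological replicates without saying what was repeated, so the p-values measure the spread between these libraries. Contrasts are written as in ND7_D0 (Nanda Day 7 against Nanda Day 0), SD7_D0 (the same in Sadash) and NS_D7 (Nanda against Sadash on Day 7). A gene was called upregulated or downregulated at an adjusted p under 0.01 in edgeR's quasi-likelihood test with a log2 fold change of 1 or more in size.

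The libraries held 6675262 to 27463269 counts over high-confidence genes. The 7 GAMYB-type genes, relatives of a rice regulator of anther and pollen development, summed to 194 to 205 TPM (transcript abundance scaled to transcript length and library size) in Nanda and 181 to 196 TPM in Sadash on Day 0. They summed to 37.7 to 45.8 TPM in Nanda and 61.4 to 75.8 TPM in Sadash on Day 7, and to 14.8 to 15.5 TPM and 10.1 to 11.8 TPM on Day 21. The 5 embryo markers, vicilin-type globulins and 1-Cys peroxiredoxins that mark seed tissue, ran the other way, from at most 0.42 TPM in any Day 0 library to at least 1041 TPM in any Day 21 library. On Day 7, replicate 3 stood apart in both genotypes, with 171 TPM of the embryo markers against 1.13 and 2.04 TPM in Nanda, and 11.6 TPM against 0.52 and 0.78 TPM in Sadash. Day 7 values of the members, and the counts of the gene lists that move, are therefore also given without each of these libraries in turn. In bulk samples such as these, fewer cells of a type and less RNA per cell cannot be told apart.

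The LFL1-type gene was low in microspores, at its highest in Nanda proembryos and intermediate in the ELSs of both genotypes. In Nanda it had 7.1, 5.82 and 6.29 TPM on Day 0, 96.3, 101.5 and 118.5 TPM on Day 7, and 58.08, 52.37 and 58.3 TPM on Day 21. In Sadash it had 5.69, 7.83 and 6.28 TPM on Day 0, 42.44, 29.4 and 37.12 TPM on Day 7, and 75.02, 56.33 and 63.13 TPM on Day 21. All 3 Nanda proembryo libraries lay above every other library of the study, and every Day 0 library lay below every later one. Its summed counts per group were between 291 in Sadash microspores and 4916 in Nanda proembryos. From the lowest group mean to the highest, the order was Nanda Day 0, Sadash Day 0, Sadash Day 7, Nanda Day 21, Sadash Day 21 and Nanda Day 7. Within that order the 2 Day 0 groups overlapped each other, as did the 2 Day 21 groups, and the other neighbouring groups were separate.

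**Figure D1:**
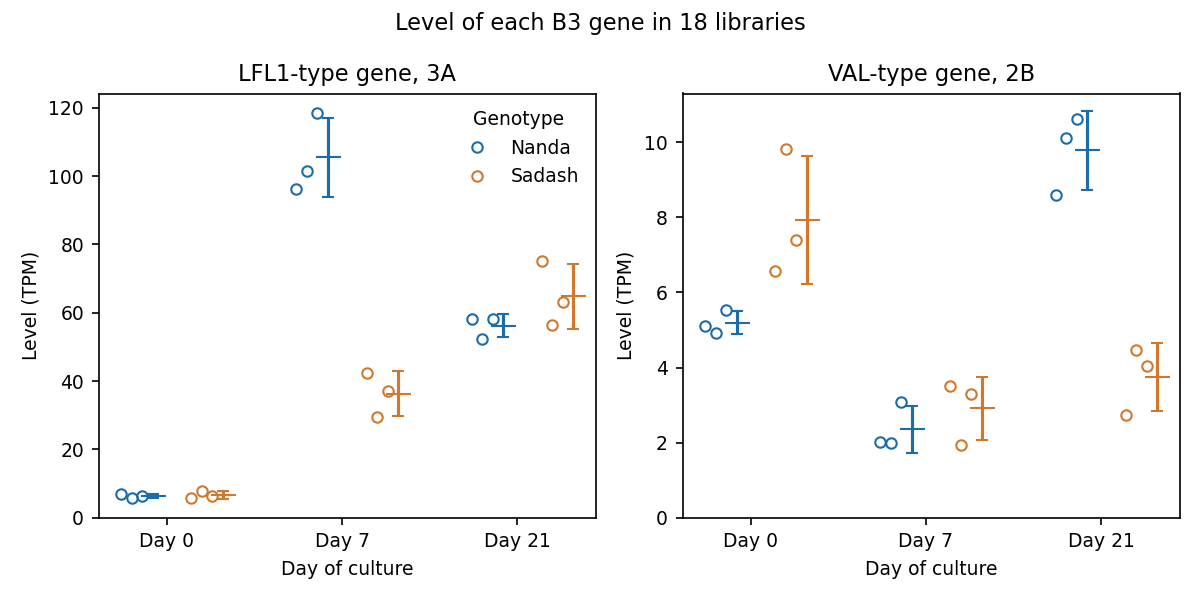
TPM of the LFL1-type gene and of the VAL-type gene (y axes, linear, from 0) by day of culture (x axis) for Nanda and Sadash; open points are single libraries, bars are means ± SD of 3 libraries. The LFL1-type gene peaked in Nanda proembryos at 105 ± 11.6 TPM, and the VAL-type gene was highest in Nanda ELSs at 9.78 ± 1.06 TPM.

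Over the first transition, the LFL1-type gene averaged 105 ± 11.6 TPM on Day 7 and 6.40 ± 0.648 TPM on Day 0 in Nanda (SD, n = 3), a ratio of 16.5. In Sadash the averages were 36.3 ± 6.56 TPM on Day 7 and 6.60 ± 1.1 TPM on Day 0, a ratio of 5.50. The fitted log2 fold changes were 4.18 ± 0.18 (SE) for ND7_D0 and 2.40 ± 0.18 for SD7_D0, and their difference was 1.79 ± 0.24. These contrasts chose the gene or share their libraries with those that did, and they carry no p-value. Among all tested genes, 18.5% were called upregulated in ND7_D0 and 16.0% in SD7_D0, and 7.41% were called in either direction and 3.96% higher in Nanda for the difference of the transition between genotypes. Without replicate 3 of Nanda Day 7, the library with the most embryo marker RNA on that day, the values were 4.12 for ND7_D0 and 1.72 for the difference; without replicate 3 of Sadash Day 7, SD7_D0 was 2.40 and the difference 1.79.

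Over the second transition the genotypes parted. The LFL1-type gene fell in Nanda, where ELSs had 0.534 of the mean TPM of proembryos, with a log2 fold change of -1.25 ± 0.16 (SE; edgeR adjusted p = 3e-06). On the TPM scale the change was under the fold threshold and the call was lost, at -0.89 by limma on log2(TPM + 1) and -0.90 on log2(TPM + 0.1). In Sadash the mean TPM of ELSs was 1.79 times that of proembryos with no overlap between libraries, and the log2 fold change of 0.94 ± 0.16 (edgeR adjusted p = 6.74e-05) was under the fold threshold, so the gene was not called. The change from Day 7 to Day 21 differed between Nanda and Sadash by -2.19 ± 0.22 on the log2 scale (edgeR adjusted p = 1.22e-06). Of all tested genes, 18.3% were called downregulated in ND21_D7, 16.8% upregulated in SD21_D7, and 9.40% had a second-transition difference called lower in Nanda. These tests are not independent of the choice of the gene, since they contain the Day 7 libraries that chose it. Without replicate 3 of Nanda Day 7, ND21_D7 was -1.18 and the difference -2.12; without replicate 3 of Sadash Day 7, SD21_D7 was 0.94 and the difference -2.19.

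Measured against the microspores, ELSs of both genotypes had more LFL1-type RNA. The ELSs of Nanda averaged 56.3 ± 3.36 TPM, or 8.78 times the Nanda Day 0 mean, with a log2 fold change of 2.93 ± 0.18 (edgeR adjusted p = 9.18e-11). The ELSs of Sadash averaged 64.8 ± 9.46 TPM, or 9.82 times the Sadash Day 0 mean, with a log2 fold change of 3.34 ± 0.18 (edgeR adjusted p = 2.41e-11). Both were called upregulated, as were 25.9% of the tested genes in ND21_D0 and 24.0% in SD21_D0. The Day 0 libraries in these contrasts are among those that chose the gene, so the tests are not independent of that choice.

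Between the genotypes, the LFL1-type gene differed most on Day 7. The Nanda mean was 0.970 of the Sadash mean on Day 0, with overlapping libraries and a log2 difference of -0.06 ± 0.18. On Day 7 it was 2.90 times the Sadash mean, with no overlap and a log2 difference of 1.73 ± 0.16. Both values contain libraries that chose the gene and are a description, with 6.78% of the tested genes called higher in Nanda on Day 7. The Day 7 log2 difference was 1.66 with replicate 3 of Nanda left out and 1.73 with replicate 3 of Sadash left out. On Day 21, which shares no library with that choice, the Nanda mean was 0.868 of the Sadash mean, the libraries overlapped, and the log2 difference of -0.46 ± 0.16 was not called (edgeR adjusted p = 0.032), where 12.6% of the tested genes were. With same-numbered Day 21 libraries as pairs the log2 difference was -0.48 (edgeR adjusted p = 0.00487) and still under the fold threshold.

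The LFL1-type gene has 2 annotated transcripts, and RSEM assigned all of its reads in Sadash microspores to transcript 2. Such a value of 0 need not mean that transcript 1 was absent. For the copy on chromosome 3B (TraesCS3B02G278000), transcript 1 was at 0 in Nanda Day 0 replicate 1 and transcript 2 in Nanda Day 7 replicate 1. Transcript 1 had 4.08, 4.51 and 4.16 TPM in Nanda microspores and was at 0 in all 3 Sadash microspore libraries. There, 3 counts in a library would equal 0.191 to 0.239 TPM, and the mean of Nanda microspores was 19.95 times the mean of these values. That ratio depends on how RSEM divided the reads shared by both transcripts, which was not checked. The Nanda value rested on 58.97, 99.51 and 55.05 expected counts.

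Transcript 1 was found in both genotypes on the later days. On Day 7 it had 53.4, 67.19 and 64.96 TPM in Nanda and 16.05, 3.24 and 8.98 TPM in Sadash, with no overlap. On Day 21 it had 8.01, 15.5 and 2.59 TPM in Nanda and 37.15, 13.37 and 32.62 TPM in Sadash, and the groups overlapped. As a share of the TPM of the gene, transcript 1 in Nanda made up 67.0% ± 10.0 on Day 0, 58.8% ± 6.38 on Day 7 and 15.9% ± 12.7 on Day 21 (SD, n = 3). In Sadash the share was 0 on Day 0, 24.3% ± 13.4 on Day 7 and 41.6% ± 15.5 on Day 21. RSEM apportions reads that both transcripts share, and the share of transcript 1 of the 3B copy was 0, 28.4% and 85.7% within the 3 libraries of Nanda Day 0 alone. No order of groups is read from transcript shares for that reason. The gene sums of counts are not affected by how reads are divided between transcripts of the same gene. The gene sums of TPM depend on it only through transcript length, and transcript 1 had 0.966 of the effective length of transcript 2.

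**Figure D2:**
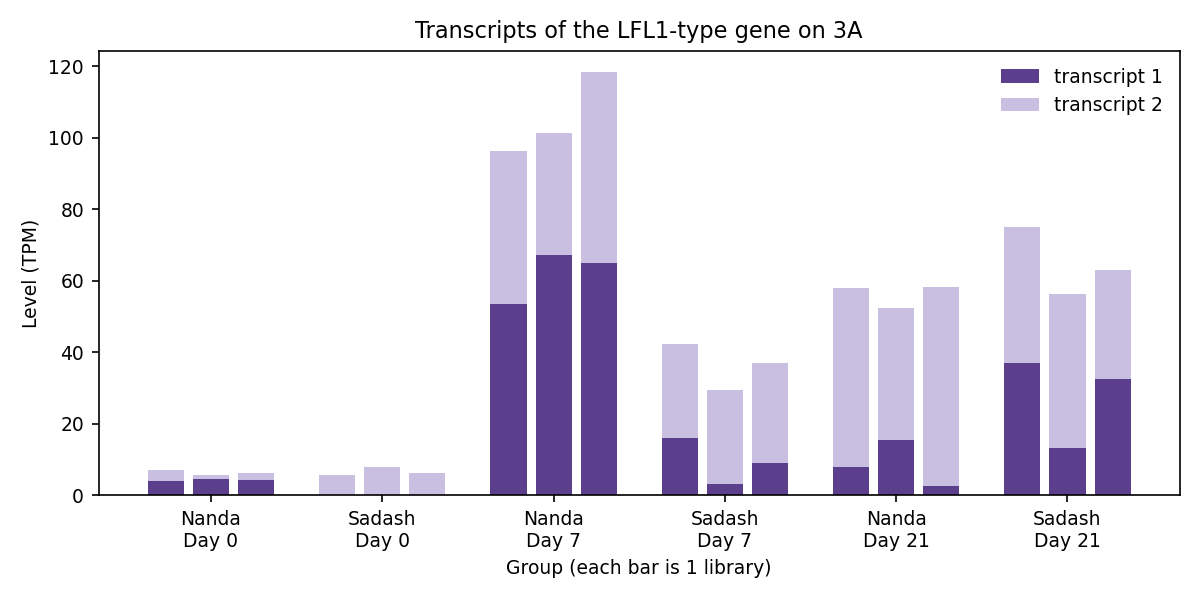
TPM of transcript 1 and transcript 2 of the LFL1-type gene (stacked bars, y axis from 0) in each of the 18 libraries, grouped by genotype and day. Transcript 1 was at 0 in the 3 Sadash Day 0 libraries, and at 4.08 to 4.51 TPM in the 3 Nanda Day 0 libraries.

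Hexaploid wheat carries the A, B and D subgenomes, and the LFL1-type gene belongs to a triad of homoeologs with TraesCS3B02G278000 and TraesCS3D02G249100. The 3A copy made up a larger part of the triad after Day 0 than on Day 0 in both genotypes. In Nanda it gave 21.7%, 26.5% and 21.4% of the triad TPM on Day 0, 39.7%, 40.4% and 45.7% on Day 7, and 42.9%, 45.5% and 44.1% on Day 21. In Sadash it gave 16.2%, 15.3% and 16.6% on Day 0, 42.2%, 41.2% and 47.3% on Day 7, and 41.3%, 40.8% and 40.1% on Day 21. Nanda libraries were all above Sadash libraries on Day 0 and on Day 21, and the genotypes overlapped on Day 7. The mean difference between Nanda and Sadash was 7.14 percentage points on Day 0, -1.62 on Day 7 and 3.46 on Day 21. The Day 21 difference had an exact two-sided permutation p of 0.1, the smallest that 3 against 3 libraries can give. Without replicate 3 the Day 7 difference was -3.50 when the Nanda library was left out and 0.22 when the Sadash library was. The Day 0 level of the 3A copy itself overlapped between genotypes. There the Nanda means of 3B and 3D were 0.556 and 0.665 of the Sadash means, without overlap, though neither was called. On Day 21 the 3B share averaged 13.5% in Nanda and 22.0% in Sadash, and the 3D share 42.3% and 37.3%, neither with overlap. Reads of near-identical homoeologs can be split between copies by the counting, so the copy shares are less certain than the triad sum.

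In Nanda the triad as a whole had 28.0 ± 5.47 TPM on Day 0, 251 ± 8.22 TPM on Day 7 and 128 ± 10.9 TPM on Day 21. In Sadash it had 41.3 ± 8.54, 83.5 ± 15.2 and 159 ± 21.7 TPM on the same days. The 3B copy had 50.83, 44.56 and 50.8 TPM in Nanda proembryos and 15.19, 15.82 and 22.14 TPM in Sadash proembryos. The 3D copy had 95.61, 104.9 and 89.9 TPM in Nanda proembryos and 42.85, 26.13 and 19.3 TPM in Sadash proembryos. For both copies every Nanda proembryo library lay above every Sadash one. On Day 0 the 3B and 3D copies averaged 7.48 and 14.1 TPM in Nanda, below the 13.4 and 21.3 TPM of Sadash.

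**Figure D3:**
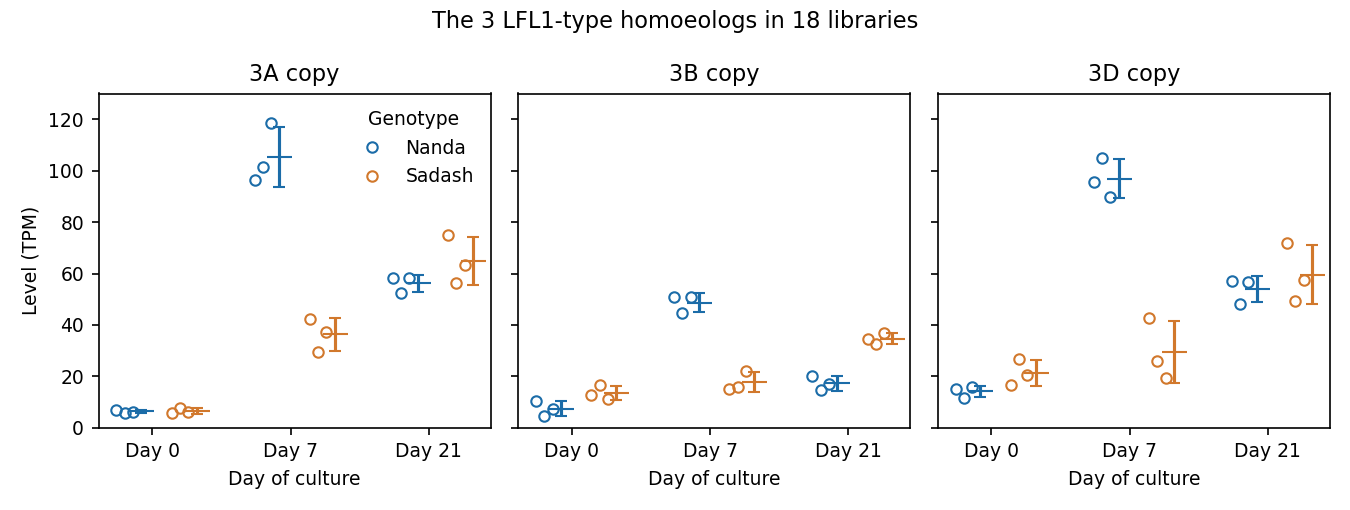
TPM of the 3A, 3B and 3D copies of the LFL1-type triad (y axis, linear, from 0) by day of culture for Nanda and Sadash; open points are single libraries, bars are means ± SD of 3 libraries. All 3 copies were higher in Nanda than in Sadash on Day 7, with no overlap between libraries.

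Unlike the 3A copy, the 3B and 3D copies were not called in SD7_D0, with log2 fold changes of 0.33 ± 0.22 and 0.43 ± 0.25 (edgeR adjusted p = 0.231 and 0.161); whether the copies differed from each other was not tested. Their log2 fold changes in ND7_D0 were 2.87 and 2.91, a contrast by which the study listed them. The change of the first transition was larger in Nanda by 2.55 ± 0.32 for 3B and 2.49 ± 0.35 for 3D (edgeR adjusted p = 4.41e-05 and 1.28e-04), a test that contains that contrast. These differences hold both the lower Day 0 levels and the higher Day 7 levels of Nanda. Over the second transition both copies fell in Nanda, by 1.85 ± 0.22 and 1.20 ± 0.24 on the log2 scale. Both rose in Sadash, by 1.1 ± 0.22 and 1.12 ± 0.24, and the genotypes differed by -2.96 ± 0.31 for 3B and -2.32 ± 0.34 for 3D (edgeR adjusted p = 1.47e-06 and 5.41e-05). In all of these the calls of the 3B and 3D copies were kept without replicate 3 of Day 7 in either genotype, except the rise of the 3D copy in Sadash, which was 0.89 and not called without the Sadash library. Of 26 alternatives, 2 lost the fall of the 3D copy in Nanda, where ELSs had 0.558 of the mean TPM of proembryos. The rises in Sadash were lost under 3 alternatives for 3B and 4 for 3D. The second-transition tests also contain the Nanda Day 7 libraries by which the study listed both copies. On Day 21 the 3B copy was lower in Nanda than in Sadash by a log2 difference of -1.26 ± 0.22 (edgeR adjusted p = 1.99e-04), where 5.60% of genes were called lower in Nanda. The 3D copy, at -0.41 ± 0.24, was not called there (edgeR adjusted p = 0.213).

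The VAL-type gene followed another course, being lowest in proembryos of both genotypes and highest in Nanda ELSs. In Nanda it had 5.12, 4.93 and 5.53 TPM on Day 0, 2.01, 1.98 and 3.08 TPM on Day 7, and 8.59, 10.12 and 10.63 TPM on Day 21. In Sadash it had 6.57, 9.83 and 7.39 TPM on Day 0, 3.5, 1.95 and 3.29 TPM on Day 7, and 2.73, 4.48 and 4.03 TPM on Day 21. The Day 7 libraries lay below the Day 0 libraries of the same genotype in all cases, while on Day 21 the Nanda libraries were all above, and the Sadash libraries all below, their own Day 0 libraries. The gene has 1 annotated transcript, and its summed counts per group ran between 302 in Nanda proembryos and 1263 in Nanda ELSs. By group mean, the order from the lowest was Nanda Day 7, Sadash Day 7, Sadash Day 21, Nanda Day 0, Sadash Day 0 and Nanda Day 21. The first 3 of these overlapped in turn, Nanda Day 0 stood apart from both of its neighbours, and Sadash Day 0 overlapped Nanda Day 21. Its wheat homoeologs were not identified and are not analysed here.

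The Day 7 level of the VAL-type gene was below the Day 0 level in both genotypes. In Nanda it averaged 2.36 ± 0.627 TPM on Day 7 and 5.19 ± 0.307 TPM on Day 0 (SD, n = 3), with a log2 fold change of -1.01 ± 0.24 that is a description, since the study listed the gene by it. Among all tested genes 15.2% were called downregulated in ND7_D0. In Sadash it averaged 2.91 ± 0.841 TPM on Day 7 and 7.93 ± 1.70 TPM on Day 0 and fell, with a log2 fold change of -1.49 ± 0.24 (edgeR adjusted p = 4.29e-05), as 12.0% of the tested genes did. The change of the first transition did not pass the test for a difference between genotypes, at 0.48 on the log2 scale (edgeR adjusted p = 0.352). Without replicate 3 of Nanda Day 7, ND7_D0 was -1.22 and the difference 0.28; without replicate 3 of Sadash Day 7, SD7_D0 was -1.57 and the difference 0.56. The Nanda libraries of Day 0 and Day 7 chose the gene, and the difference contains them.

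On the second transition the VAL-type gene rose in Nanda, where ELSs had 4.15 times the mean TPM of proembryos and a log2 fold change of 1.71 ± 0.24 (edgeR adjusted p = 8.41e-06). By CPM the ratio of means was smaller, at 3.25. Among all tested genes, 15.8% were called upregulated in ND21_D7. The contrast reuses the Nanda Day 7 libraries by whose low level the study listed the gene, so its test is not independent of that choice, and the same holds for the second-transition difference between genotypes. Without replicate 3 of Nanda Day 7 the log2 fold change was 1.91. In Sadash ELSs averaged 3.75 ± 0.909 TPM, their libraries overlapped those of proembryos, and the log2 fold change of 0.44 was not called (edgeR adjusted p = 0.121). The second-transition difference between Nanda and Sadash was 1.27 ± 0.33 on the log2 scale (edgeR adjusted p = 0.00743), in a test that called 6.80% of genes higher in Nanda. This call was near its threshold. It was lost when any of 11 of the 18 libraries was left out, with adjusted p-values between 5.07e-04 and 0.0237 over the 18 fits, and the difference itself stayed between 1.06 and 1.53; without replicate 3 of Nanda Day 7 it was 1.47 and called, and without replicate 3 of Sadash Day 7 it was 1.19 and not called.

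Set against microspores, the VAL-type gene in ELSs fell in Sadash and was not called in Nanda. SD21_D0 was -1.05 ± 0.23 on the log2 scale (edgeR adjusted p = 6.03e-04), where 22.2% of genes were called downregulated. That value was close to the fold threshold and the call was lost without replicate 2 of Sadash Day 0 (-0.86) or replicate 1 of Sadash Day 21 (-0.87). It was also lost under 4 of 8 other settings, DESeq2 among them (-0.97), over which the value ran from -1.07 to -0.91. ND21_D0, which shares the Nanda Day 0 libraries with the choice of the gene, was 0.69 and was not called (edgeR adjusted p = 0.0105). A difference between genotypes over the whole interval was not tested.

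Between the genotypes, the VAL-type gene differed on Day 21. Nanda ELSs averaged 9.78 ± 1.06 TPM and Sadash ELSs 3.75 ± 0.909 TPM, a ratio of 2.61 with no overlap and a log2 difference of 1.15 ± 0.23 (edgeR adjusted p = 8.3e-04), where 6.96% of genes were called higher in Nanda. The difference was 0.97 and under the fold threshold without replicate 1 of Sadash Day 21. On Day 0 the Nanda mean was 0.655 of the Sadash mean and the libraries did not overlap, and on Day 7 it was 0.809 of the Sadash mean with overlapping libraries. Neither was called, with log2 differences of -0.59 and -0.11 (edgeR adjusted p = 0.06 and 0.754); 5.12% and 6.03% of genes were called lower in Nanda on these days. Both contrasts share Nanda libraries with the choice of the gene. On Day 7 the difference was -0.32 without replicate 3 of Nanda and -0.04 without replicate 3 of Sadash.

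The ratio of the LFL1-type to the VAL-type gene within a library does not depend on library size. In Nanda it averaged 1.24 ± 0.133 on Day 0, 45.9 ± 6.64 on Day 7 and 5.81 ± 0.841 on Day 21 (TPM over TPM, SD, n = 3), and in Sadash 0.837 ± 0.036, 12.8 ± 1.99 and 18.6 ± 7.87 on the same days. On the log2 scale the Nanda libraries had ratios of 0.47, 0.24 and 0.19 on Day 0, 5.58, 5.68 and 5.26 on Day 7, and 2.76, 2.37 and 2.46 on Day 21. The Sadash libraries had -0.21, -0.33 and -0.23 on Day 0, 3.60, 3.91 and 3.50 on Day 7, and 4.78, 3.65 and 3.97 on Day 21. Nanda lay above Sadash in every library on Day 0 and Day 7 and below it in every library on Day 21. The mean log2 difference between Nanda and Sadash was 0.56 on Day 0, 1.84 on Day 7 and -1.61 on Day 21. For Day 21 the exact two-sided permutation p was 0.1, the smallest possible with 3 against 3 libraries. The Day 0 and Day 7 differences contain libraries that chose the genes and carry no test. The study's account of ABI3 and VAL factors on Day 21 limits the Day 21 test as well. Without replicate 3, the Day 7 difference was 1.96 when the Nanda library was left out and 1.75 when the Sadash library was. TPM are scaled by transcript length, and the VAL-type transcript was counted over an effective length 2.74 times that of transcript 2 of the LFL1-type gene.

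**Figure D4:**
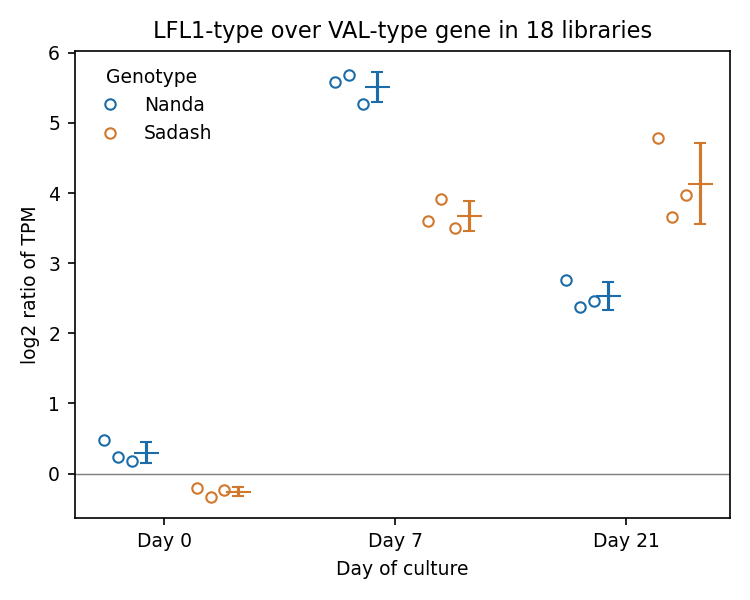
log2 of the TPM of the LFL1-type gene over the TPM of the VAL-type gene (y axis) by day of culture (x axis) for Nanda and Sadash; open points are single libraries, crosses with bars are means ± SD of 3 libraries, and the line at 0 marks equal TPM. Nanda was above Sadash on Day 0 and Day 7 and below it on Day 21.

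The other genes of the ABI3 group give the setting of the LFL1-type gene. The list held 10 genes, the LFL1-type gene included. It was drawn from a table of genes that the study had selected in ND7_D0, of which a part is at hand, so its direction there is not independent evidence. Contrasts that reuse the Nanda Day 0 or Day 7 libraries are not independent of that selection either. In ND7_D0 7 of the 10 were called upregulated and 3 downregulated, where 18.5% and 15.2% of all tested genes were, and the median log2 fold change was 2.89, against 0.00 over all tested genes. In SD7_D0 4 were upregulated and 2 downregulated, with a median of 0.38 against 0.00 over all tested genes, of which 16.0% and 12.0% were called in these directions. The genotype difference of the first transition was called higher in Nanda for 4 of the 9 genes other than the LFL1-type gene and lower for 3, against 3.96% and 3.45% of all tested genes. Over the second transition it was called lower in Nanda for 4 of these 9, against 9.40% of all tested genes. The 3B and 3D copies of the LFL1-type gene were among those called in both transitions. The 3 called lower in the first were those matched to the rice B3-domain protein Os04g0676650. These counts take homoeologs as separate genes. Over all 10 genes, the LFL1-type gene included, the counts were 5 higher and 3 lower for the first transition, and 5 lower for the second. Without replicate 3 of Nanda Day 7 they were 4, 3 and 4. Without replicate 3 of Sadash Day 7 they were 4, 3 and 5, and 3 genes were downregulated in SD7_D0.

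Unlike the LFL1-type gene, the 3 VP1-type genes, matched to the cereal ABI3 ortholog VIVIPAROUS1, which drives seed maturation and dormancy in maize, went on rising to Day 21 in both genotypes. In Nanda their summed level was 1.72 ± 0.266 TPM on Day 0, 36.0 ± 11.0 TPM on Day 7 and 111 ± 6.68 TPM on Day 21, and 2.00 ± 0.87, 17.7 ± 4.17 and 89.4 ± 23.0 TPM in Sadash. Each of the 3 was called upregulated in ND21_D7 and in SD21_D7, with log2 fold changes of 1.06 to 1.55 in Nanda and 2.05 to 3.06 in Sadash. In Nanda proembryos the VP1-type genes were highest in replicate 3, the library with the most embryo marker RNA; the part of that library in the result was not tested.

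The 3 genes matched to the rice B3-domain protein Os04g0676650 (TraesCS2A02G554300, TraesCS2B02G589800 and TraesCS2D02G560000) were high in microspores, the opposite of the LFL1-type gene. They ranged over 17.8 to 25.0 TPM in Nanda microspores and 12.0 to 20.5 TPM in Sadash microspores, 1.45 to 3.83 TPM in Nanda proembryos and 5.16 to 16.7 TPM in Sadash proembryos, and all were at 0 TPM in every Day 21 library. The IDEF1-type gene TraesCS7B02G230100, matched to a rice regulator of the iron deficiency response, had 47.3, 59.8 and 50.4 TPM in Nanda proembryos and 34.0, 45.1 and 34.8 TPM in Sadash proembryos. It fell in ND21_D7 by 1.41 ± 0.17 on the log2 scale (edgeR adjusted p = 1.2e-06). In SD21_D7 its log2 fold change was -0.11, which was not called (edgeR adjusted p = 0.599).

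**Figure D5:**
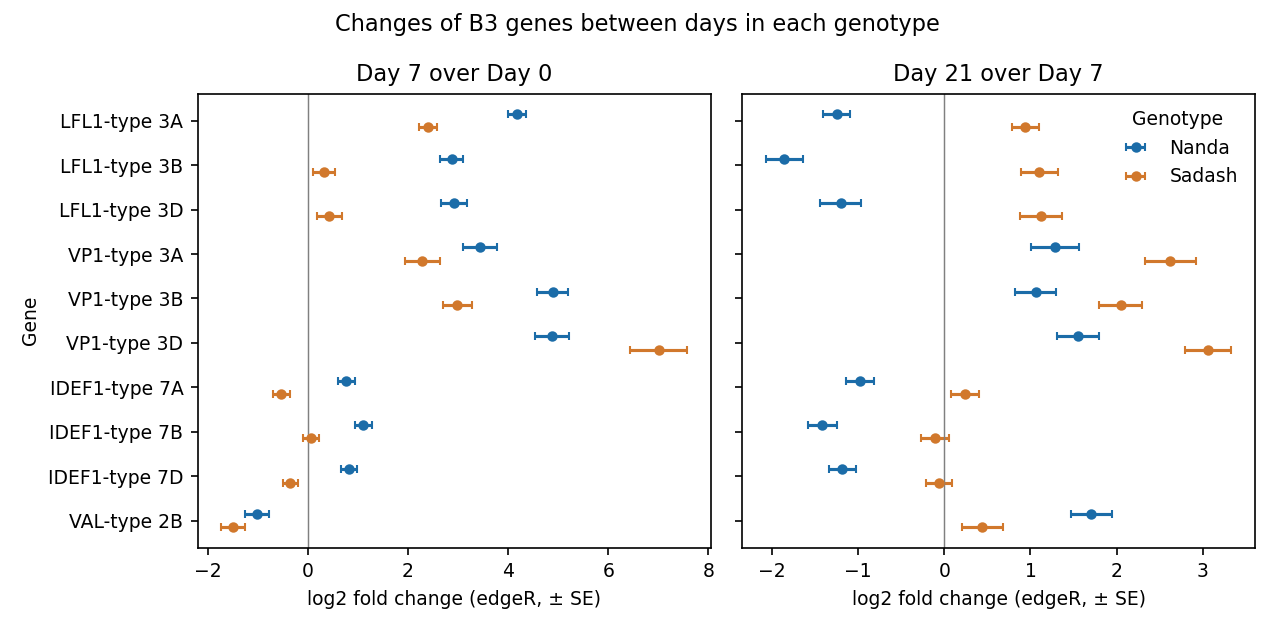
log2 fold changes (x axis, edgeR, bars are ± SE) of the LFL1-type, VP1-type and IDEF1-type triads and of the VAL-type gene, named on the y axis, for the first transition (Day 7 against Day 0) and the second transition (Day 21 against Day 7) in Nanda and Sadash. The 3 copies of the LFL1-type gene lie below 0 in Nanda and above 0 in Sadash for the second transition, and the VAL-type gene lies above 0 in both, though it was called in Nanda alone.

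Lists of related genes were taken from the same table of the study, with the same limit on their direction in ND7_D0. The limit holds for the NF-YB list here and for the other B3-domain and seed lists below. That selection used the Nanda Day 0 and Day 7 libraries, so NS_D7, ND21_D7 and other contrasts containing them are not independent of it. How many genes were called in ND7_D0 and in SD7_D0 is likewise a description. The 8 NF-YB genes, relatives of LEC1, were all called upregulated in ND7_D0 (18.5% of all tested genes), 3 of them in SD7_D0 (16.0%), and 3 were called higher in Nanda in NS_D7 (6.78%). The median of the list in NS_D7 was 2.04, against 0.04 over all tested genes. Like the LFL1-type gene, 6 of the 8 were called downregulated in ND21_D7 (18.3% of all tested genes). Without replicate 3 of Nanda Day 7 that count was 5. Without replicate 3 of Sadash Day 7, 4 genes were called in SD7_D0 and 4 in NS_D7. In SD21_D7 0 of the 8 were called by edgeR or by DESeq2, where edgeR called 35.2% of all tested genes in either direction. The median log2 fold change was 0.82, against 0.00 over all tested genes. Though 8 of 8 had an unadjusted p under 0.05 in edgeR, the share of all tested genes at that level was not computed. That count is therefore not read as a result about these genes. The NF-YB6-type gene TraesCS6A02G287300, matched to Arabidopsis L1L, had 25.2 ± 1.69 TPM in Nanda and 11.2 ± 4.34 TPM in Sadash proembryos, and 7.56 ± 0.65 TPM in Nanda and 16.9 ± 1.40 TPM in Sadash ELSs.

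The 10 B3-domain genes outside the ABI3 and VAL groups were at or near 0 on Day 0. All 10 were called upregulated in ND7_D0 and 8 of them in SD7_D0, where 18.5% and 16.0% of all tested genes were. Afterwards 9 were called downregulated in ND21_D7 and 6 in SD21_D7, against 18.3% and 18.4% of all tested genes. Their summed level was 258 TPM in Nanda and 143 TPM in Sadash proembryos, and 40.7 TPM in Nanda and 28.3 TPM in Sadash ELSs. In NS_D7 3 of the 10 were called higher in Nanda (6.78% of all tested genes), with a median log2 difference of 1.27, against 0.04 over all tested genes. Without replicate 3 of Nanda Day 7 the NS_D7 count was 4, and without replicate 3 of Sadash Day 7 the SD7_D0 count was 9.

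The 22 genes of seed storage and desiccation, a class that LEC1, LEC2, FUS3 and ABI3 switch on in Arabidopsis, had their highest summed level on Day 21 in both genotypes. In ND7_D0 20 of the 22 were called upregulated (18.5% of all tested genes) and in SD7_D0 4 were (16.0%), and 9 were called higher in Nanda in NS_D7 (6.78%). Leaving out replicate 3 of Nanda Day 7, these counts were 14, 7 and 7, and without replicate 3 of Sadash Day 7 they were 20, 3 and 13. Over the second transition 18 were called upregulated and 1 downregulated in ND21_D7, against 15.8% and 18.3% of all tested genes. In SD21_D7 19 were called upregulated and 0 downregulated, against 16.8% and 18.4%. Without replicate 3 of Sadash Day 7 the count upregulated in SD21_D7 was 21. On Day 7 they summed to 131, 116 and 473 TPM in Nanda and 36.3, 17.0 and 115 TPM in Sadash, with replicate 3 highest in both. On Day 21 they summed to 5386 to 6165 TPM in Nanda and 2207 to 4044 TPM in Sadash, with no overlap, and 2 of the 22 were called higher in Nanda in NS_D21, a share near the 6.96% of all tested genes. The median of the list there was 0.31, against 0.00 over all tested genes. For the genotype difference of the second transition 4 of the 22 were called lower in Nanda, against 9.40% of all tested genes. Without replicate 3 of Nanda Day 7 the counts for NS_D21 and for this difference were 5 and 3, and without replicate 3 of Sadash Day 7 they were 3 and 7.

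Genes with the profile most like each member were ranked by Pearson's r of log2(CPM + 4) over the 18 libraries among the 22694 genes that averaged 10 CPM or more, as a description of libraries that share stage, genotype and depth. For the LFL1-type gene the first 5 were TraesCS4D02G263800 (r = 0.993), TraesCS7A02G495800 (0.992), TraesCS2D02G359500 (0.991), TraesCS7D02G435200 (0.990) and TraesCS5D02G256400 (0.987), none of which has a name in the tables used. Its own homoeologs ranked lower, the 3D copy at position 507 (r = 0.926) and the 3B copy at position 1644 (r = 0.856). The most unlike gene was TraesCS6D02G220200 (r = -0.964), with a mean of 0.65 CPM in Nanda and 2.50 CPM in Sadash proembryos. For the VAL-type gene the first 5 were TraesCS6A02G098900 (r = 0.946), TraesCS3B02G258000 (0.938), TraesCS2B02G272600, TraesCS3A02G077000 and TraesCS3B02G180600 (0.934 each). Like the VAL-type gene, all 5 had their highest group mean in Nanda ELSs or Sadash microspores and a lower mean on Day 7 than on Day 0 in both genotypes. That likeness follows from the ranking and is not a separate result. The most unlike gene was TraesCS1A02G108000 (r = -0.945).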

How the data were processed

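The authors processed reads by Trimmomatic 0.39 (trimming), STAR 2.7.5a (alignment to the IWGSC v1.1 annotated genome) and RSEM 1.3.3 (quantification), as the submitters' processing notes and the study's methods give it. The deposited tables hold RSEM expected counts per transcript, which need not be whole, and TPM, which the authors' RSEM run scaled by effective transcript length. Both were summed per gene over high-confidence genes, and the counts were rounded. Low-confidence genes, with 5.14% to 6.88% of the counts, were left out. Genes that reached 1 CPM in 1 library or more were fitted by edgeR 4.0.16 (R 4.3.3; TMM, 1 level per group, quasi-likelihood test, Benjamini-Hochberg over 62692 genes) in 11 contrasts; the study used DESeq2. The fit was tested on simulated data. Standard errors come from the F statistic. Alternatives were DESeq2 1.42.0, RLE scaling, other filters, limma 3.58.1 on log2(TPM + 1) or log2(TPM + 0.1), leaving out each library, fitting the compared libraries alone, and the replicate number as a block. Same-numbered Nanda and Sadash libraries of Day 21 deviated together in all 3 pairs (r = 0.17 to 0.41), so that contrast was also fitted with pairs. Named genes were both members, all ABI3-group and IDEF1-type genes, up to 3 genes per other list by mean CPM, and the 5 genes most and least like each member. The members and lists were chosen with earlier results of these data known. Gene sequences and coordinates are not used here.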

Additional observations from a re-analysis of the deposited data

Results flagged for a closer look

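Each value here is a log2 difference between Nanda and Sadash in the change between days, called by edgeR's interaction test at an adjusted p under 0.01 and a size of at least 1; a negative value means that the change was lower in Nanda.

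For the second transition, Day 7 to Day 21, the differences contain the Nanda Day 7 libraries by which the study listed most of these genes. Both members were picked out: the LFL1-type gene at -2.19 and the VAL-type gene at 1.27. The other LFL1-type copies were at -2.96 (TraesCS3B02G278000) and -2.32 (TraesCS3D02G249100), and the VP1-type TraesCS3D02G412800 was at -1.51. The IDEF1-type genes TraesCS7B02G230100, TraesCS7A02G329600 and TraesCS7D02G326300 were at -1.31, -1.22 and -1.12. The NF-YB6-type genes TraesCS6A02G287300 and TraesCS6B02G316600 were at -2.83 and -2.44, and the B3-domain genes TraesCS4B02G072800 and TraesCS4D02G071700 at -1.58 and -1.23.

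For the first transition, Day 0 to Day 7, the difference contains the Nanda contrast by which the study listed most of these genes. It was 2.55 for TraesCS3B02G278000, 2.49 for TraesCS3D02G249100, 1.90 for the VP1-type TraesCS3B02G452200, and 1.05, 1.3 and 1.17 for the IDEF1-type genes TraesCS7B02G230100, TraesCS7A02G329600 and TraesCS7D02G326300. For the genes matched to Os04g0676650 it was -2.31 (TraesCS2A02G554300), -2.13 (TraesCS2B02G589800) and -1.82 (TraesCS2D02G560000).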

How the results depend on the processing

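The LFL1-type gene kept its direction and its side of the threshold in 281 of 287 refits and the VAL-type gene in 263 of 287. The VAL-type SD21_D0 was under the fold threshold at -0.97 by DESeq2, -0.98 with RLE scaling, -0.97 with 1 CPM asked in 3 libraries and -0.91 on log2(TPM + 1), on which VAL-type ND7_D0 was -0.90. LFL1-type ND21_D7 was -0.89 on log2(TPM + 1) and -0.90 on log2(TPM + 0.1), and its NS_D0, near 0, turned to 0.025 with 1 CPM in 3 libraries. Fitting only the libraries compared called 11281 genes for SD7_D0 (17537 with all), 14374 for SD21_D7 (22090) and 3800 for NS_D7 (8029), and gave the VAL-type second-transition difference as 1.32, no longer called; fewer libraries then estimate the spread. Leaving out 1 library at a time gave these ranges: VAL-type ND7_D0 -1.22 to -0.91 (under the fold threshold without replicate 3 of Nanda Day 0 or replicate 1 or 2 of Nanda Day 7), NS_D7 -0.37 to 0.091 (above 0 without replicate 1 of Sadash Day 7), NS_D21 0.97 to 1.27, SD21_D0 -1.16 to -0.86, second-transition difference 1.06 to 1.53; LFL1-type NS_D0 -0.12 to 0.15, above 0 without replicate 2 of Sadash Day 0, and SD21_D7 0.78 to 1.12, called without replicate 1 of Sadash Day 7 (1.12) or replicate 2 of Sadash Day 21 (1.04). The first-transition count of called genes was 2944 to 6389 around 4644, lowest without replicate 2 of Nanda Day 0. The cause of these moves was not tested. Of 125 calls of 20 other named genes, 24 were lost under at least 1 alternative and none reversed; the first-transition call of TraesCS7B02G230100 was lost under 12 of 26 and that of TraesCS3B02G452200 under 7.

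The labels give no meaning to shared replicate numbers, and only 5 of 45 same-numbered pairs deviated together with r over 0.1, so the numbers were not taken to pair libraries over the whole design. The exception was Nanda against Sadash on Day 21, where all 3 same-numbered pairs were over 0.1 (r = 0.19, 0.17 and 0.41). An alternative added after seeing the data, the Day 21 libraries alone with the replicate number as a block, gave NS_D21 as -0.48 for the LFL1-type and 1.14 for the VAL-type gene, with 10154 genes called (7873 with all libraries and no block), and changed no call of either. Counts of the gene lists without replicate 3 of Day 7 were also chosen after seeing the data. With the replicate number as a block over all 18 libraries, the second-transition difference was -2.20 for the LFL1-type and 1.28 for the VAL-type gene, and no call of either changed. The VAL-type gene had 70 to 450 counts per library and the LFL1-type gene 82 to 2297.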
